A study of Homo sapiens with 9 samples.

Results

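The baseline transcriptome of vector-carrying ES-2 cells was described from the 3 libraries of ES-2 cells that carry an empty vector, out of 9 libraries in the series. ES-2 is an established human ovarian cancer cell line, commonly described as derived from a clear cell tumour. The empty vector libraries are the control arm of a study of OTUB2, a deubiquitinating enzyme, and SNX29P2, a pseudogene of the sorting nexin gene SNX29, each overexpressed in 3 further libraries. All cells grew in RPMI-1640 medium with 10% serum and received no treatment, and total RNA was extracted with TRIzol. The labels name neither the vector backbone nor whether the 3 libraries came from separate cultures or from 1 clone, so the spread between them may be technical. The libraries were taken as the labels group them and were not set against the overexpression groups in level. Genes were ranked by their mean RPKM (reads per kilobase of gene length, scaled to library depth) over the 3 libraries. No test was run, since 1 group has nothing to be compared with.

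Epithelial cells are recognised by junction proteins and keratins, and mesenchymal cells by vimentin, matrix proteins and the transcription factors of the epithelial-mesenchymal transition (EMT). Ovarian carcinomas are thought to arise from Müllerian-type epithelium or endometriosis, and clear cell carcinomas typically make the protease napsin A, encoded by NAPSA.

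The 3 libraries held 42676690, 38504866 and 41340731 reads in genes. Of 32997 table entries, 14115 (42.8%) had a mean of at least 1 RPKM, the level called detected here. Among the 16696 entries annotated as protein coding, 10721 (64.2%) were detected, the share against which the count of each gene list below is to be read. The table listed 10187 entries (30.9%) under 0.1 RPKM in all 3 libraries, called absent here, and 4556 of these had 0 reads in all 3. No entry had 0 in all 9 libraries of the series. All shares detected or absent are therefore of entries with a read in at least 1 library of the series. Of the protein coding entries, 3461 (20.7%) were absent and 1137 had no read. For these 1137 genes, 3 reads over the 3 libraries together would correspond to a median of 0.00780 RPKM, which is the limit that a count of 0 allows. Intervals and limits drawn from reads cover counting error only. The mitochondrial chromosome took 5.23, 5.10 and 4.97% of the reads.

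Abundance was steeply graded. The 20 most abundant entries took 5.99 ± 0.135% of the reads (SD, n = 3 libraries), the 100 most abundant 17.4 ± 0.256% and the 1000 most abundant 44.9 ± 0.644%. Of the first 20 entries, 16 lie on the mitochondrial chromosome, led by MT-ATP8, MT-CO2 and MT-CO1, which encode subunits of ATP synthase and cytochrome c oxidase. MT-CO2 had 7872, 7899 and 7087 RPKM in libraries 1, 2 and 3. The other 4 were MMP1, RPL41P1 (1619 RPKM, a ribosomal protein pseudogene entry of 81 bases) and the non-coding entries RP5-940J5.9 (3076 RPKM) and RP11-124N14.3 (2557 RPKM). All exon bases of RP5-940J5.9 lie inside GAPDH and 87.7% of those of RP11-124N14.3 lie inside VIM. How the authors' counting used strand is not given, so reads of these entries and of GAPDH and VIM cannot be told apart.

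**Figure D1:**
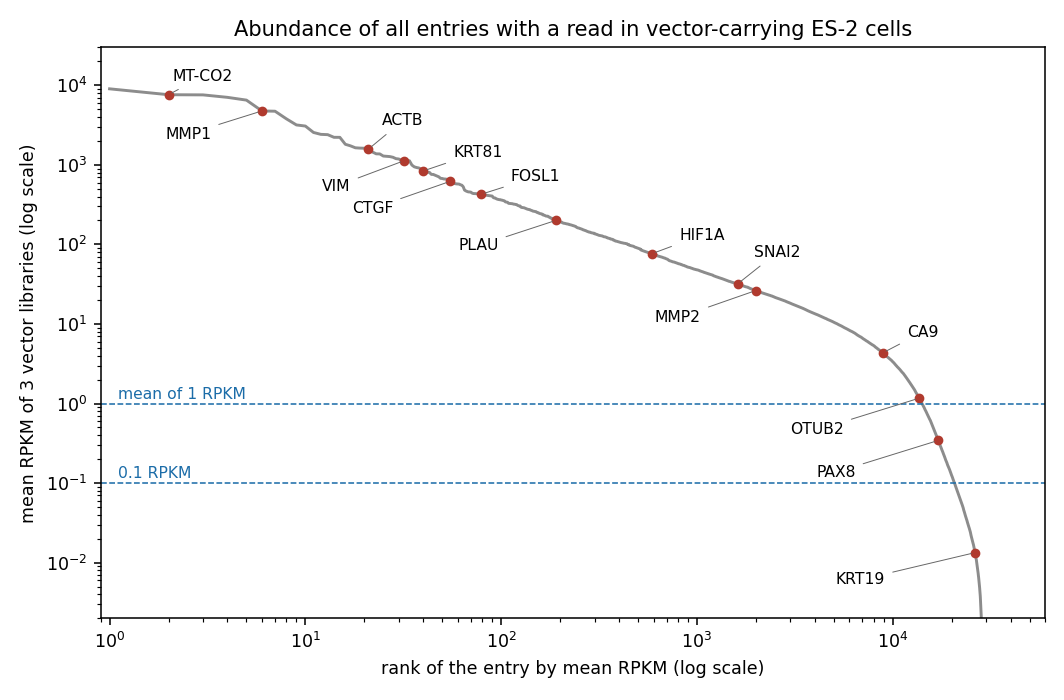
Mean RPKM of the 3 vector libraries (vertical, log scale) against the rank of each entry (horizontal, log scale), for all entries with a read. Red dots mark named genes, and dashed lines mark 1 RPKM and 0.1 RPKM. MMP1 stands at rank 6, VIM at rank 32, HIF1A at rank 588 and MMP2 at rank 1998.

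The most abundant nuclear protein coding gene was MMP1, the interstitial collagenase that cleaves fibrillar collagens. MMP1 had 4389.7, 5167 and 4735 RPKM in libraries 1, 2 and 3, a mean of 4764 ± 389.5 (SD, n = 3). It was the only nuclear protein coding gene among the first 20 entries of any kind. It took 0.865, 1.02 and 0.933% of all reads in genes. The next gene, ACTB (beta-actin), had 1428, 1603 and 1707 RPKM, so MMP1 stood 2.77 to 3.22 times above it per unit of length in each library. The 18 other measured matrix metalloproteases summed to 99.9, 101 and 94.7 RPKM, so MMP1 was 43.9 to 51.0 times their sum.

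MMP1 lies on chromosome 11 at 102789920 to 102798160 (GRCh38, reverse strand) within a cluster of metalloprotease genes, and its neighbours were far lower. MMP3 (stromelysin 1) had 6.41, 6.84 and 7.39 RPKM, and MMP10 had 0.120, 0.118 and 0.193 RPKM. MMP12 averaged 0.0447 RPKM, MMP8 0.00973, MMP20 0.00679 and MMP13 0.00276, so 4 members of the cluster were absent by the limit used here. The overlapping pseudogene WTAPP1 had 749, 871 and 801 RPKM, and 7.96% of its exon bases lie inside MMP1. Since the use of strand in counting is not given, reads of WTAPP1 and MMP1 in the shared bases cannot be told apart. Beyond the metalloproteases, YAP1 (80.5 ± 4.41 RPKM) and BIRC2 (49.6 ± 2.41 RPKM) were detected while BIRC3 averaged 0.689 RPKM.

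Outside the cluster, the membrane-type protease MMP14 had 60.2, 59.5 and 57.4 RPKM and the gelatinase MMP2 had 26.7, 27.8 and 24.5 RPKM. MMP14 activates the proenzyme of MMP2 together with the inhibitor TIMP2, and TIMP2 averaged 18.8 RPKM. TIMP1, the main secreted inhibitor of MMP1, had 103, 106 and 105 RPKM, the fourth smallest spread among protein coding genes above 100 RPKM. MMP9 had no read in any library, which allows up to 0.0105 RPKM. The MMP1 to TIMP1 ratio of levels per length ranged from 42.6 to 48.9.

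The remaining abundant nuclear genes encode cytoskeleton, translation, chaperone and glycolytic proteins. EEF1A1 (translation elongation) averaged 1452 ± 113 RPKM, the chaperone gene HSP90AB1 1377 ± 70.3, GAPDH 1292 ± 46.7 and TMSB10 (an actin-binding thymosin) 1247 ± 26.3 (SD, n = 3 each). HMGA1, which encodes an architectural chromatin protein common in embryonic and malignant cells, stood sixth among nuclear coding genes with 1351, 1233 and 1255 RPKM. ACTG1 had 883, 1404 and 1128 RPKM and was the least even of the first 10. The 84 measured genes of cytosolic ribosomal proteins took 5.91 ± 0.190% of reads, with 82 detected and 21 among the 100 most abundant entries. Processed copies of ACTB, ACTG1 and the ribosomal protein genes share sequence with them, and the handling of reads that match several places is not given.

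Mesenchymal genes included several of the most abundant transcripts. Of 21 measured genes for mesenchymal structure and surface proteins, 14 (66.7%) were detected and 2 (9.52%) were absent. The share detected was close to the 64.2% of all protein coding genes, of which 20.7% were absent. VIM, the intermediate filament of mesenchymal cells, had 1145, 1142 and 1105 RPKM, an even level, at rank 32 of all entries. LGALS1 (galectin 1) averaged 369 ± 26.5 RPKM, CAV1 (caveolin 1) 144 ± 16.4, FN1 (fibronectin) 124 and ENG (endoglin) 117 ± 1.61. CD44, a hyaluronan receptor, averaged 67.8 ± 3.12 RPKM and CDH2 (N-cadherin) 16.2 ± 0.608. HIF1A, the oxygen-regulated transcription factor subunit, had 86.3, 74.0 and 69.1 RPKM, and its paralog EPAS1 had 1.31, 0.946 and 0.530 RPKM. Contractile members of the list were uneven, with the actin-binding genes CALD1 at 16.3 RPKM, TPM2 at 3.75 and CNN1 at 1.58, but ACTA2 at 0.654 and TAGLN at 0.117. The pericyte receptor gene PDGFRB averaged 0.0366 RPKM and the matrix gene POSTN 0.00148. THY1 (0.237 RPKM), S100A4 (0.269) and MCAM (0.425) of the same list were also under the detection level. MYL9, a smooth muscle myosin light chain outside the list, had no read, which allows up to 0.00868 RPKM.

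Of 10 measured EMT transcription factors, 7 were detected, a share close to the 64.2% of all protein coding genes. SNAI2 (Slug) led with 25.8, 39.7 and 30.0 RPKM, lowest in library 1. TWIST2 averaged 12.7 ± 2.85 RPKM and was also lowest in library 1, while ZEB1 (8.90, 8.54 and 8.65 RPKM) and TWIST1 (7.25, 7.96 and 7.98 RPKM) were nearly level. SNAI1 averaged 0.606 RPKM and SNAI3 0.0240, so Slug was the main measured Snail-family transcript.

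Epithelial junction genes were almost all under the detection level. Of 24 measured members, 1 was detected and 14 were absent. The detected member was OVOL2, a zinc finger repressor of ZEB1 in epithelial cells, with 7.85, 7.51 and 8.79 RPKM. EPCAM averaged 0.0126 RPKM, the splicing factor gene ESRP1 0.0104 and desmoplakin (DSP) 0.00172, while P-cadherin (CDH3) had no read. CDH1 and GRHL2 were not analysed here.

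Keratins ranged widely. KRT81, best known as a hair keratin, had 827, 858 and 832 RPKM and ranked 13th among nuclear coding genes. The simple-epithelium keratins KRT18 (110.0, 110.2 and 147 RPKM), KRT7 (115, 141 and 105 RPKM) and KRT8 (28.7, 28.9 and 36.5 RPKM) followed. KRT18 and KRT8, which pair into 1 filament, were both highest in library 3. In contrast KRT19 averaged 0.0134 RPKM, from reads in library 1 alone, and KRT1, KRT6A, KRT14 and KRT17 had no read. KRT80 (15.2 RPKM), KRT10 (9.58) and KRT15 (at most 1.40, in library 1) lay between these. Of 17 measured keratins, 7 were detected and 10 were absent. VIM stood 10.4, 10.4 and 7.53 times above KRT18 per unit of length.

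**Figure D2:**
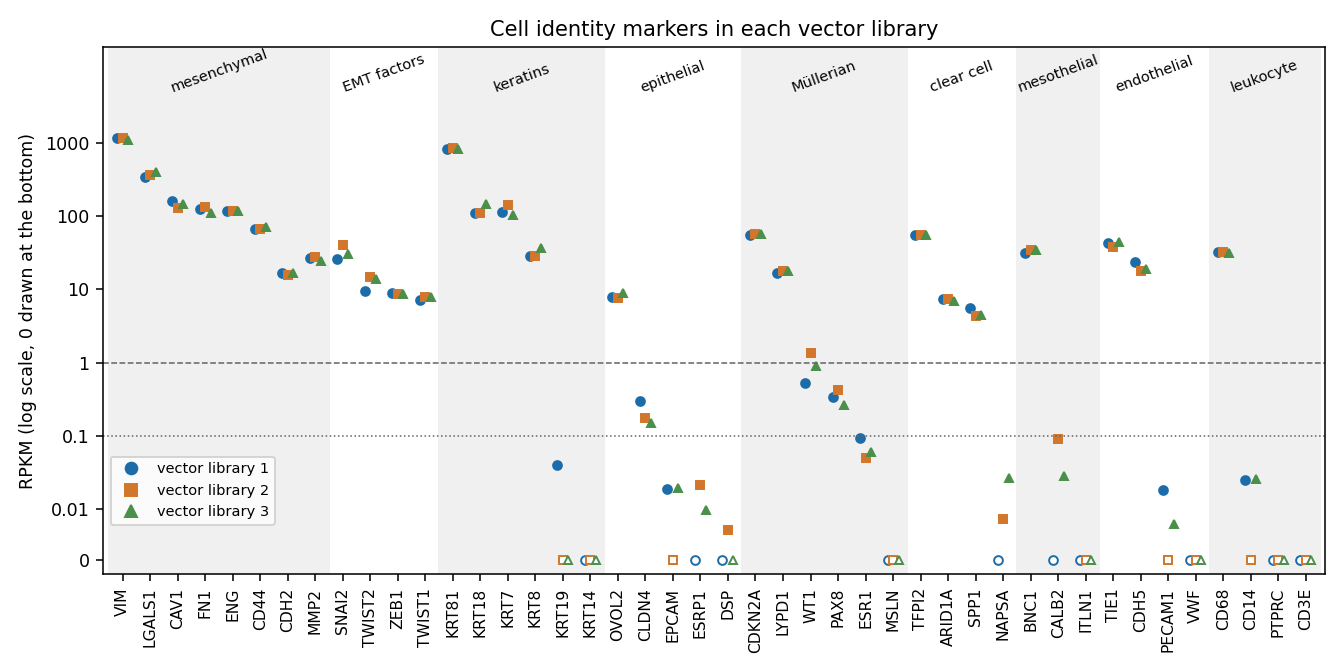
RPKM of marker genes of 9 classes (horizontal) in vector libraries 1 to 3, on a log scale (vertical) with 0 drawn as open symbols at the bottom. Dashed and dotted lines mark 1 and 0.1 RPKM. VIM, KRT81 and KRT18 lie above 100 RPKM in every library, while EPCAM, NAPSA, MSLN, VWF and PTPRC lie under 0.1 RPKM.

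Markers of ovarian carcinoma types were mixed. Of 9 measured Müllerian and serous markers, 4 were detected. CDKN2A, which encodes the cell cycle inhibitor p16, had 55.7, 56.4 and 56.9 RPKM, and LYPD1 averaged 17.3 ± 0.686. MECOM (7.30 RPKM) and CCNE1 (4.56 ± 0.999 RPKM) were also detected. The Müllerian transcription factor gene PAX8 had 0.342, 0.421 and 0.268 RPKM, and WT1, a serous and mesothelial marker, had 0.524, 1.37 and 0.906 RPKM around the detection level. The oestrogen receptor gene ESR1 averaged 0.0676 RPKM, and mesothelin (MSLN) had no read, which allows up to 0.00956 RPKM.

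Of 17 measured clear cell markers, 8 were detected and 6 were absent. TFPI2, a protease inhibitor, led with 55.6, 55.5 and 55.8 RPKM. The chromatin remodeller ARID1A averaged 7.22 ± 0.296 RPKM, STAT3 5.62 and osteopontin (SPP1) 4.75 ± 0.664. NAPSA, a marker used for the type in pathology, averaged 0.0114 RPKM. Mucin 16 (MUC16) was not analysed here. The labels call the line an ovarian cancer line and give no histological type.

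Markers of other lineages were mostly under the detection level, with exceptions. Of 54 measured markers of leukocytes, endothelium, neurons, liver, muscle, fat and melanocytes, 7 were detected and 32 (59.3%) were absent. The neuronal and glial list had fewer absent, 4 of 12 (33.3%). Its 3 detected members were TUBB3 (16.4 RPKM), NEFL (3.17) and SNAP25 (1.96). The melanocyte gene PMEL averaged 3.06 RPKM. PTPRC and CD3E had no read, and CD14 averaged 0.0168 RPKM. CD68, a lysosomal glycoprotein used as a macrophage marker, averaged 31.9 RPKM, but 85.8% of its exon bases lie inside the entry RP11-186B7.4, which averaged 276. Among 10 endothelial markers, TIE1 (42.2, 38.0 and 43.7 RPKM) and CDH5 (23.6, 17.6 and 18.9 RPKM) were detected, without overlap with another entry. PECAM1 averaged 0.00812 RPKM and VWF had no read, and 5 of the 10 markers were absent. In bulk RNA, fewer cells of a type and less RNA per cell cannot be told apart. The mesothelial transcription factor gene BNC1 had 30.9, 34.8 and 34.5 RPKM, while calretinin (CALB2) averaged 0.0400 RPKM and intelectin (ITLN1) had no read. The sex cord list gave SOX9 at 31.1 ± 0.944 RPKM and AMH at 2.22, with 7 of 10 measured members absent.

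HOX genes keep a record of position along the body axis. Of 36 measured HOX genes, 25 were detected. Paralog groups 1 to 9 had 22 of 26 detected with a median of 3.80 RPKM, and the posterior groups 10 to 13 had 3 of 10 detected with a median of 0.294 RPKM. This difference did not hold in every cluster. HOXA had 5 of 8 detected in groups 1 to 9 (median 1.92 RPKM) and 2 of 3 in groups 10 to 13 (median 1.57 RPKM), and HOXB had no measured gene in groups 10 to 13. The HOXB cluster was highest, with all 8 measured genes detected and a summed mean of 84.8 RPKM, against 19.8, 24.5 and 24.5 RPKM for HOXA, HOXC and HOXD. HOXB2 had 32.1, 25.7 and 33.5 RPKM, HOXB7 21.7, 16.7 and 21.0, and HOXB9 averaged 13.5. The detected posterior genes were HOXA10 (3.04 RPKM), HOXD13 (2.30) and HOXA11 (1.57), named after their values were seen. HOXD4 (9.07 RPKM) and HOXD3 (4.20 RPKM) have 80.5 and 73.0% of their exon bases inside the entry AC009336.19.

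**Figure D3:**
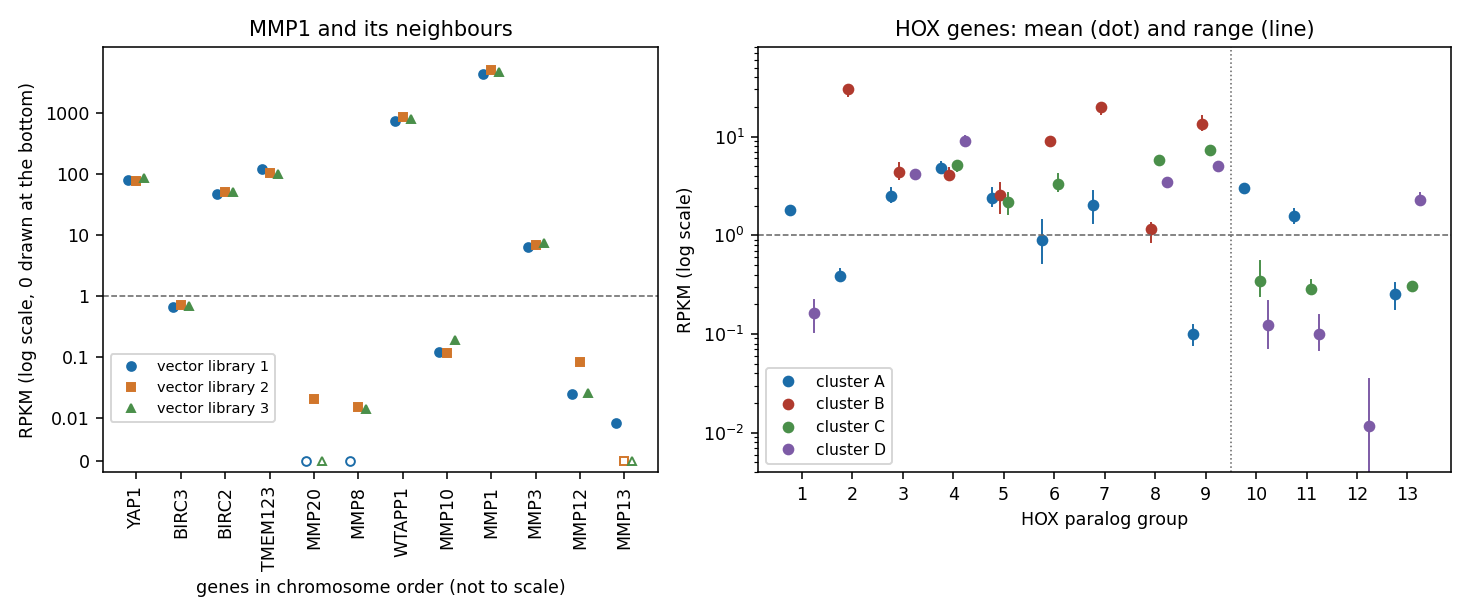
Left, RPKM (log scale) of MMP1 and its chromosomal neighbours in the 3 vector libraries, with 0 drawn as open symbols. Right, mean RPKM (dots, log scale) and range over the 3 libraries (lines, drawn to the bottom edge where a library had 0) of 36 HOX genes by paralog group. MMP1 lies between 4389.7 and 5167 RPKM while MMP3 reaches 7.39 RPKM at most, and most genes right of the dotted line after group 9 lie under 1 RPKM.

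Receptor genes ranged from no read to over 100 RPKM. Of 323 measured receptor genes in 9 lists, 139 (43.0%) were detected and 125 (38.7%) were absent, against 64.2% and 20.7% of all protein coding entries. Among 55 receptor tyrosine kinases 20 were detected, 9 of them above 10 RPKM. EPHA2, an ephrin receptor, had 74.2, 78.9 and 86.2 RPKM and AXL, the receptor of GAS6, had 76.9, 73.6 and 81.7. TIE1 came next at 41.3 ± 2.95 RPKM, then EGFR with 31.1, 34.8 and 28.0 RPKM and MET, the hepatocyte growth factor receptor, at 26.3 ± 3.02. FLT1, FLT4, MST1R and EPHB3 had no read.

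The TNF receptor list was led by TNFRSF12A, the receptor of TWEAK, with 138, 163 and 157 RPKM, the highest level of any receptor list member. The decoy receptor TNFRSF6B averaged 47.8 RPKM, but all of its exon bases lie inside the readthrough entry RTEL1-TNFRSF6B. The TGF-beta receptors were uneven, with TGFBR2 at 52.8 ± 2.73 RPKM, TGFBR1 at 3.74 and ACVRL1 at 0.00320. Integrins were led by ITGB1 (139 ± 11.2 RPKM), ITGA3 (71.6 ± 8.62), ITGA6 (50.1 ± 5.72) and ITGA5 (22.8), the subunits of laminin and fibronectin receptors. The leukocyte integrin alpha chains ITGAL, ITGAD and ITGAM were absent, while their shared beta chain ITGB2 averaged 7.61 ± 1.11 RPKM.

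Among 66 G protein-coupled receptors 21 were detected. The thrombin receptor F2R had 39.0, 41.8 and 33.3 RPKM and the adenosine receptor ADORA2B 26.8, 32.4 and 28.5. CXCR4, CXCR3, CCR2 and CX3CR1 had no read. Of 16 entries named as chemokine receptors, 12 were absent and 1 was detected. The detected entry was CXCR5 at 8.16 RPKM, with 88.6% of its exon bases inside BCL9L, a gene at 17.3 RPKM.

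Cytokine receptors were carried by OSMR (18.1 ± 2.06 RPKM) and its partner IL6ST (14.3 ± 1.33), which together bind oncostatin M. The interleukin 13 decoy IL13RA2 averaged 13.2 ± 1.55 RPKM and IFNGR2 11.4. Notch and Wnt receptors were led by NOTCH2 (24.4, 24.4 and 20.6 RPKM) and FZD2 (12.3, 15.4 and 16.8 RPKM), while NOTCH3 and LGR6 had no read and LRP5, a Wnt co-receptor, averaged 0.0190 RPKM beside LRP6 at 2.93. Of 43 nuclear receptors, 22 were detected, led by NR2F2 (28.3 ± 2.42 RPKM), PPARD (26.8 ± 1.27) and ESRRA (25.8). HNF4A, a nuclear receptor of liver and gut, averaged 0.00214 RPKM. Of the checkpoint ligands, PVR averaged 38.6 ± 9.07 RPKM, CD274 (PD-L1) 13.4 ± 2.96 and PDCD1LG2 12.1.

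Of 283 measured genes for secreted factors, 128 (45.2%) were detected and 91 (32.2%) were absent, against the same 64.2% and 20.7% of protein coding entries. The highest after MMP1 were 2 matricellular proteins that are textbook targets of YAP and the TEAD transcription factors. CTGF had 626, 635 and 605 RPKM and CYR61 had 481, 494 and 472, and both varied little between libraries. Plasminogen activation was represented at several steps. The urokinase gene PLAU had 205, 209.5 and 189 RPKM, its receptor PLAUR 38.2, 33.8 and 38.9, and tissue plasminogen activator (PLAT) 154, 120.2 and 109.7. The inhibitor gene SERPINB2 had 153, 224 and 161 RPKM, highest in library 2. Of 18 measured members of this list, 12 were detected, all above 10 RPKM, and thrombomodulin (THBD) and F5 had no read.

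Several genes of the AP-1, MYC and Hippo list were abundant too, and their part in the levels of the secreted genes was not tested. FOSL1, the AP-1 subunit Fra-1, had 356, 505 and 421 RPKM, JUN averaged 133 ± 11.7, YAP1 80.5 ± 4.41 and MYC 69.6 ± 2.07. FOS averaged 0.934 RPKM and ATF3 0.887, so FOSL1 and JUN were the main measured AP-1 transcripts, with FOSL2 at 22.0 and JUNB at 16.2 RPKM. Of 17 measured AP-1, MYC and Hippo factors, 14 were detected. TEAD4 averaged 12.3 RPKM and TEAD1 10.3. Promoter windows of 3 abundant secreted products are shown, picked because they hold letters that TEAD or AP-1 factors recognise. Sites of MYC were not searched. They are CTGF, SERPINB2 and CPA4 (carboxypeptidase A4, 248 RPKM, named after its value was seen). Each window runs from 250 bases before to 50 bases after the RefSeq start (GRCh38.p14). Capitals mark TATAAA between 45 and 16 bases before the start on the gene's strand, and GGAATG (TEAD) and TGANTCA (AP-1) on either strand. The windows are chr6:131951323-131951622 (reverse strand, CTGF, RefSeq symbol CCN2), chr18:63887455-63887754 (forward strand, SERPINB2) and chr7:130292911-130293210 (forward strand, CPA4).
CTGF: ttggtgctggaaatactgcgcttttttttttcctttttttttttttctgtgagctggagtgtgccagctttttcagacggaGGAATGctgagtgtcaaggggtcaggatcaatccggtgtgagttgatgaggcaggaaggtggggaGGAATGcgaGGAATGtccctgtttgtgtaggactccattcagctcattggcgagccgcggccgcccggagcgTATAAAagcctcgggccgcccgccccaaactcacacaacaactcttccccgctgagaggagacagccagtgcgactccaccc
SERPINB2: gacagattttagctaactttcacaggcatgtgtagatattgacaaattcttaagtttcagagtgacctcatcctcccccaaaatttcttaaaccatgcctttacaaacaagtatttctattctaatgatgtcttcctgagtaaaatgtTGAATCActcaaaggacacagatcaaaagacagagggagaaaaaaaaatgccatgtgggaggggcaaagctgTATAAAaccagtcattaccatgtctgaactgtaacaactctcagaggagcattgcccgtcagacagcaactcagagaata
CPA4: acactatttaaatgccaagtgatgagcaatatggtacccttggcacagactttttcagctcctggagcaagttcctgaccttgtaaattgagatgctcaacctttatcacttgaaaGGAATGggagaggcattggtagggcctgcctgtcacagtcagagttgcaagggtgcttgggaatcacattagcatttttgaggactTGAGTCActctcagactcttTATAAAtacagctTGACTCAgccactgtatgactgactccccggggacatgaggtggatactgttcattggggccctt

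The CTGF window held GGAATG 3 times, starting 169, 104 and 95 bases before the start, and TATAAA 32 bases before it. The SERPINB2 window held 1 TGANTCA match, 102 bases before the start, and TATAAA 30 bases before it. The CPA4 window held TGANTCA 48 and 15 bases before the start, GGAATG 134 bases before it and TATAAA 28 bases before it. No match overlapped another. Of 13119 windows of nuclear protein coding genes, 2.80% held the TATAAA match, 11.1% held GGAATG and 5.27% held TGANTCA. A match is a description of letters and not of binding.

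Growth factor ligands were led by a few members of each family. HBEGF, an EGFR ligand, had 27.1, 28.8 and 27.3 RPKM and FGF5 had 22.9, 24.4 and 25.8. The neurite growth factor midkine (MDK) averaged 33.5 ± 4.55 RPKM, VEGFB 30.9 ± 2.68 and VEGFC 17.4 ± 0.511. EGF itself averaged 0.0607 RPKM, IGF1 0.00806 and HGF 0.00263, and IGF2 had no read, which allows up to 0.00391 RPKM. In the TGF-beta family the activin antagonist FST averaged 38.7 ± 5.94 RPKM, TGFB1 31.9 ± 2.53 and the activin subunit INHBA 22.9. Among Wnt genes the secreted antagonists DKK1 (100.1, 109 and 93.1 RPKM), SFRP1 (73.6, 73.8 and 66.4) and DKK3 (64.6, 80.7 and 55.4) exceeded every measured Wnt ligand, of which WNT5B was the highest at 5.50 RPKM.

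Of 18 measured chemokines, 7 were detected. CXCL5 led with 161, 122 and 133 RPKM, CXCL8 (interleukin 8) had 90.9, 53.5 and 52.3 and CXCL1 34.5, 21.9 and 34.6. All 3 attract neutrophils through CXCR2, and CXCR1 and CXCR2 had no read in these cells. MIF averaged 311 ± 5.62 RPKM, with 61.9% of its exon bases inside MIF-AS1. LIF averaged 28.1 ± 4.10 RPKM and IL11 had 13.8, 29.2 and 13.6, highest in library 2. IL6 averaged 0.637 RPKM and TNF had no read, which allows up to 0.0146 RPKM.

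Matrix genes were detected for 17 of 34 collagens and 24 of 37 laminins and glycoproteins. The collagen VI genes COL6A2 (108, 125 and 103 RPKM) and COL6A1 (65.7, 85.2 and 66.9) were highest in library 2, as was COL1A1 with 64.6, 86.0 and 65.7. The list as a whole did not share this order, since 9 of its 17 detected members were highest in library 1 and 9 were lowest in library 2. COL1A2, whose product joins that of COL1A1 in type I collagen, averaged 0.00715 RPKM, from 8, 2 and 0 reads, and COL3A1 had no read. The laminin 332 chain LAMB3 averaged 96.1 ± 8.22 RPKM and the cross-linking enzyme LOX had 100.3, 65.0 and 68.7. Of 6 measured IGF binding proteins, IGFBP6 was highest at 10.4 RPKM and IGFBP2 averaged 0.00328.

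Both partners were detected for 24 of 77 measured ligand and receptor pairs. The ligand alone was detected in 23 pairs, the receptor alone in 16 and neither in 14. Taken singly, 43.0% of measured receptor genes and 45.2% of measured secreted factor genes were detected, against 64.2% of all protein coding entries. No share over arbitrary pairs of genes was computed, so the pair count is a description only. Ordered by the lower of the 2 means, the leading pairs were PLAU with PLAUR (201 and 37.0 RPKM), TGFB1 with TGFBR2 (31.9 and 52.8), HBEGF with EGFR (27.7 and 31.3), FN1 with ITGA5 (124 and 22.8) and COL1A1 with DDR2 (72.1 and 13.6). GAS6 with AXL (8.42 and 77.4 RPKM), JAG1 with NOTCH2 (6.14 and 23.2), SEMA3C with NRP1 (5.73 RPKM for SEMA3C, the lower), FGF5 with FGFR1 (24.4 and 5.52) and EREG with EGFR (4.92 and 31.3) completed the first 10. Among abundant receptors whose paired ligand was measured but not detected, EPHA2 stood beside EFNA1 at 0.0255 RPKM (its other ephrin ligands were not paired here), MET beside HGF at 0.00263 and OSMR beside OSM at 0.0112. The serum in the medium can hold ligands that RNA does not show. Among ligands whose paired receptor was not detected, endothelin 1 (EDN1, 35.3 RPKM) stood beside EDNRA at 0.0620 RPKM and IL11 beside IL11RA at 0.0451.

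**Figure D4:**
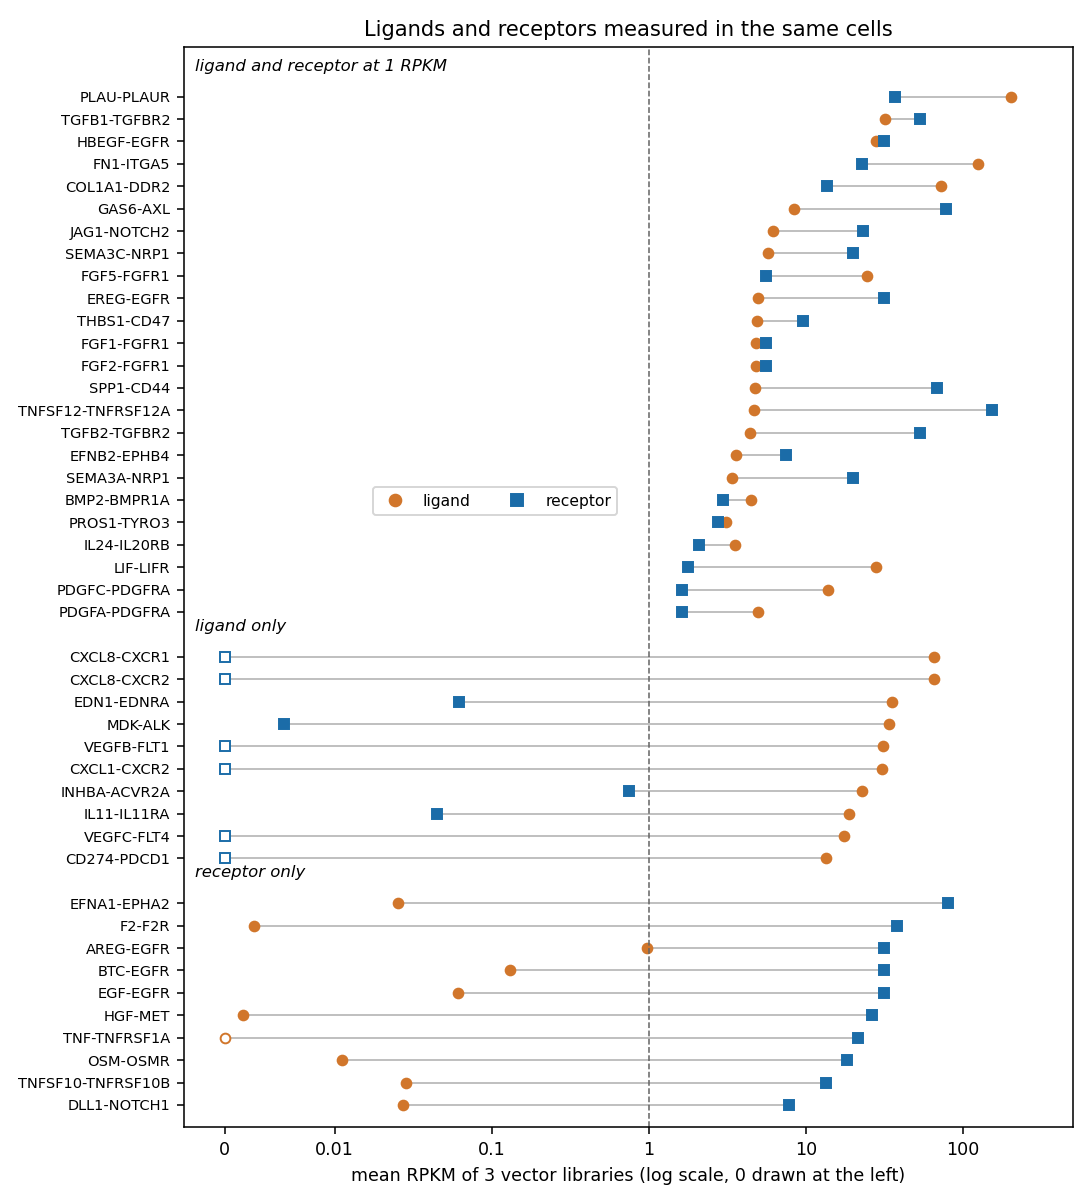
Mean RPKM over the 3 vector libraries (horizontal, log scale, 0 as open symbols at the left) of ligands (circles) and receptors (squares) of the 24 pairs with both at 1 RPKM, then of the 10 pairs with the ligand alone detected and the 10 with the receptor alone detected whose detected partner was highest. The dashed line marks 1 RPKM. PLAU and PLAUR are the pair whose lower member is highest, at 37.0 RPKM.

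Germline genes of the cancer-testis class were detected for 10 of 24 measured members. SPANXB1 had 66.4, 66.2 and 68.0 RPKM, MAGEA3 48.4, 52.5 and 55.1, PRAME 54.8, 41.4 and 38.6 and MAGEA12 22.3, 23.4 and 22.9. MAGEA3 and MAGEA6 (4.87 RPKM), like the SPANX genes, are near-identical copies, so their levels depend on how shared reads were assigned. MAGEA4 averaged 0.00562 RPKM and MAGEB2 had no read. Among cell cycle and death regulators, CCND1 (cyclin D1) averaged 149 ± 22.1 RPKM and CCND2 had no read, which allows up to 0.00342 RPKM.

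Several gene families were absent in large part, counted over entries with a read somewhere in the series. Of 65 olfactory receptor entries 50 were absent, of 13 class II histocompatibility entries none was detected and 8 were absent, and of 40 cytochrome P450 entries 27 were absent. Potassium channel entries were absent in 45 of 75 cases and defensin entries in 6 of 7. Of 308 solute carriers 82 (26.6%) were absent and 172 (55.8%) detected, and of 494 zinc finger entries 67 (13.6%) were absent and 261 (52.8%) detected, against 20.7% and 64.2% of protein coding entries.

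The genes that the study manipulates elsewhere were low in the vector cells. OTUB2 had 1.31, 1.16 and 1.04 RPKM, just above the detection level. SNX29P2 had 0.0665, 0.0246 and 0 RPKM, and 76.3% of its exon bases lie inside another entry. Its parent gene SNX29 averaged 1.61 ± 0.207 RPKM. CA9, the hypoxia-induced carbonic anhydrase, had 3.96, 6.75 and 2.29 RPKM, a 2.95-fold range within the group.

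The 3 libraries were similar but not interchangeable. Across genes, which are not independent replicates, pairwise Pearson correlations of log2(RPKM + 0.1) were 0.977 to 0.982. Among the 14115 detected entries the median SD of log2(RPKM + 0.1) between libraries was 0.15. Counting error alone, with reads taken as independent, gave 0.04. The highest library was at least 2 times the lowest for 607 entries (4.30%). That share was 29.5% of 1409 entries with fewer than 100 reads on average. The 15 entries with the largest SD all had under 100 reads on average and none was protein coding. They were entries of 54 to 462 bases, mostly microRNA, small nucleolar RNA and clone-named entries such as MIR4767, with 0, 38 and 29 reads. Protein coding genes with a mean of at least 100 reads were therefore ranked as well, a filter chosen after the data were seen. Of these 10623 genes, 131 (1.23%) had a ratio of at least 2.

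Among these coding genes ANGPTL4, a secreted lipase inhibitor, varied most, with 0.302, 2.89 and 0.731 RPKM. It was followed by STARD4, a sterol carrier (4.79, 1.22 and 0.889 RPKM), CRISPLD2 (0.824, 2.69 and 0.705), the clock gene PER2 (0.951, 3.72 and 1.72) and HES4 (1.47, 4.81 and 1.62). Of the 15 most variable, 10 were highest in library 2, against 34.9% of the 10623 genes. Of the 200 most variable, however, 106 (53.0%) were highest in library 1 and 80 in library 2, against 39.3% and 34.9% of all these genes. TUBA1A had 23.6, 6.86 and 10.1 RPKM, highest in library 1. The inducible chaperones HSPA1A (44.1, 125 and 68.0 RPKM) and HSPA1B (54.4, 169.9 and 85.3) had the same order and are near-identical copies. At the even end, RPL6 had 265, 263 and 259.8 RPKM, and RPL10A, TIMP1, ARF1 and ENG were also among the most even genes above 100 RPKM.

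Genes of several processes shared an order over the libraries. All 30 measured G2/M and mitosis genes were detected, all 30 were lowest in library 2 and 24 were highest in library 3. Among all detected entries with a unique name, 4877 of 14100 were lowest in library 2. CDC20, the anaphase activator, had 184, 156 and 270.0 RPKM, HMMR 25.8, 11.9 and 24.6 and KIF20A 17.7, 10.7 and 24.3. The list's median centred log2 values were 0.08, -0.38 and 0.30 in libraries 1, 2 and 3. DNA replication genes did not share this order, with medians of 0.03, 0.01 and -0.04 over 26 genes and 11 lowest in library 2. TUBB, with 770.2, 480.4 and 772 RPKM, and TUBA1B, with 538, 307 and 545, were also lowest in library 2.

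Cholesterol synthesis and uptake genes were set apart by library 1. Of 21 detected members, 21 were highest in library 1, against 5529 of 14100 detected entries. The medians of centred log2 values were 0.35, -0.16 and -0.23. INSIG1, the sterol sensor partner, had 26.2 RPKM in library 1 and 9.35 RPKM in library 3, and DHCR7, the last enzyme of the pathway, had 162, 112 and 85.7. The desaturase SCD, outside the list, had 105, 54.2 and 44.6 RPKM.

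Amino acid stress genes were set apart by library 2. Of 15 detected targets and members of the ATF4 response, 14 were highest there, against 4952 of 14100 detected entries. ASNS (asparagine synthetase) had 9.11, 25.9 and 10.8 RPKM, the transporter SLC7A5 33.6, 87.6 and 50.3 and CTH 2.96, 5.17 and 1.96. The ATF4 transcript itself was even, with 89.1, 90.8 and 86.9 RPKM. Of 15 detected heat shock genes, 8 were highest in library 2 and 6 in library 3. Library 1 was the lowest for 10 of them, against 4063 of 14100 detected entries. HSPA5, a chaperone of the endoplasmic reticulum, had 199.9, 311 and 153 RPKM, and HSPA8 had 387, 769.5 and 600.0. Of 15 detected immediate early genes, 12 were highest in library 2, among them EGR1 (15.3, 30.8 and 20.7 RPKM). Of 27 detected HIF targets, 16 were highest in library 1 and 9 in library 2, and ANGPTL4, CA9 and PFKFB4 varied most. Translation factors varied little, with a median SD of 0.09 over 18 genes.

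**Figure D5:**
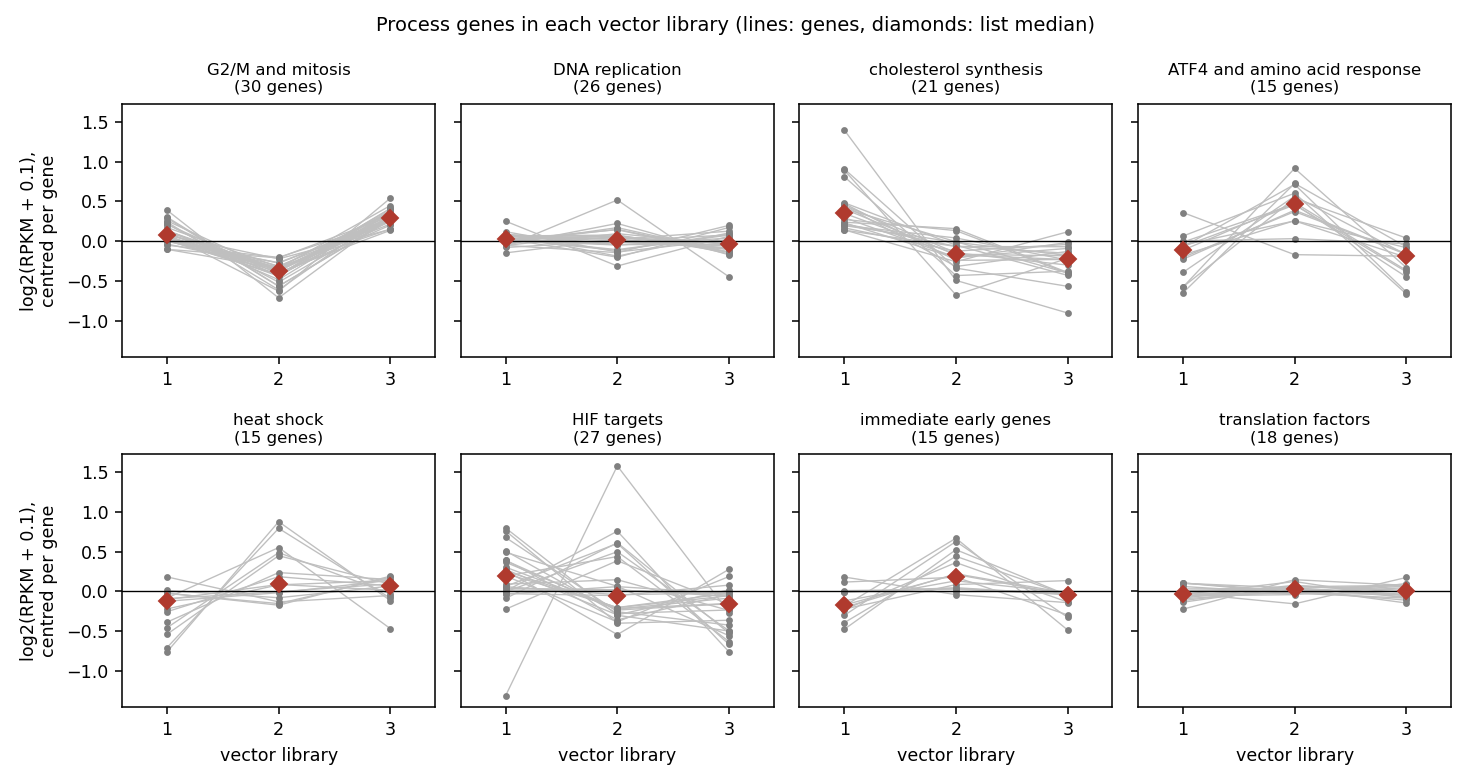
Log2(RPKM + 0.1) of each detected list member (grey), centred on its own mean, in vector libraries 1, 2 and 3, with the list median as a red diamond. G2/M genes are lowest in library 2 (median -0.38), cholesterol genes highest in library 1 (0.35), and amino acid response genes highest in library 2 (0.46), while DNA replication and translation genes stay near 0.

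Promoter windows of the amino acid gene ASNS and the chaperone gene HSPA8 are shown, picked because they hold the letters of elements known from the 2 responses. Capitals mark the amino acid response element TGATGNAA and the heat shock element (3 alternating units of GAA and TTC, NN between them, in either order), on either strand. The windows, again from RefSeq (GRCh38.p14), are chr7:97872359-97872658 (reverse strand, ASNS) and chr11:123062087-123062386 (reverse strand, HSPA8).
ASNS: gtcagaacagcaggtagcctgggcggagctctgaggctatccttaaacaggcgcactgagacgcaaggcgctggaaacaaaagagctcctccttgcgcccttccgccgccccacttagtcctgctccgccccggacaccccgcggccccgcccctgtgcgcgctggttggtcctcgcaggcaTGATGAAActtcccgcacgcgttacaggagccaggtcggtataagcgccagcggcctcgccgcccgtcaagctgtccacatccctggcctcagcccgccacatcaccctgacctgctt
HSPA8: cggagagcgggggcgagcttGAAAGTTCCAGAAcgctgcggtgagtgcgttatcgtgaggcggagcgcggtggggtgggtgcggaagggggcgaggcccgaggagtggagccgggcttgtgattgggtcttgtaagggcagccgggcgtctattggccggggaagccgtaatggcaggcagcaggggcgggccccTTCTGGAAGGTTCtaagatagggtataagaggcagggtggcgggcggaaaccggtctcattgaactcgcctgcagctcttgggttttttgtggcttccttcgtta

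The ASNS window held 1 TGATGNAA match, 68 bases before the start, and the HSPA8 window held the heat shock element 230 and 55 bases before the start. Of 13119 windows, 2.16% held TGATGNAA and 0.366% held the heat shock element. These matches again describe letters and not binding, and their part in the spread between the libraries was not tested.

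The spread of the most variable genes was also read within each of the other groups, with no level compared. The 200 coding genes with the largest SD among the vector libraries were taken. Of these, 81 (40.5%) were above the 95th percentile of the SD within the OTUB2 libraries and 83 (41.5%) within the SNX29P2 libraries. By its definition this cut leaves 5.01% of all 10623 genes above it. The 200 genes were not matched to the rest for level or reads, and the part of counting error in these counts was not tested. The median SD over these 10623 genes was 0.14 in the vector libraries, 0.09 in the OTUB2 libraries and 0.10 in the SNX29P2 libraries. Median centred values in 4 bins of gene length or of GC content stayed between -0.05 and 0.07 in each library. Growth state, batch and handling of the cells behind the 3 libraries are not given, and their part in this spread was not tested.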

How the data were processed

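RNA-seq of 3 libraries of ES-2 cells with an empty vector was used, out of 9 libraries. The other 6 entered only through the spread within their own groups. The authors deposited RPKM values per gene with gene lengths; the submitters' processing notes name GRCh38 as the build. Which aligner, counter and annotation release were used, and how strand was handled, is not given in the sources used here. RPKM times length, scaled to the library, gave whole reads in 100% of values below 1000 reads (within 0.05 of a whole number), so the depth of each library was recovered. These reads served for depth, limits and counting error. Even numbers made up 58.1 to 60.1% of the values below 1000 reads. Counting error and limits took the reads as independent counts, which was not tested, so both may be too small.

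Entries were typed from GENCODE 29 by name (22692) or position (9717), and 588 were not matched. Spread was the SD of log2(RPKM + 0.1), and the spread step was tested on simulated data. No pair of libraries agreed within counting error (chi-square per gene 29.5 to 45.9), so none was counted as a repeat deposit. Promoter windows from RefSeq (GRCh38.p14) were matched by symbol for 13119 of 16660 nuclear coding genes (78.7%). Since this is under 80%, gene classes were not compared on their promoters. Computation used numpy 2.4.6 and pandas 2.3.3 under Python 3.11.15, with figures drawn in matplotlib 3.10.9.

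Members and gene lists were chosen with earlier results of these data known. The genes named were the 20 most abundant, VIM, HIF1A and MMP2, the 4 highest and up to 6 defining absent members of each of 52 lists, the 10 leading ligand and receptor pairs, the 15 entries with the largest SD, the 3 most variable members of each process list, the 5 most abundant non-coding nuclear entries, and OTUB2, SNX29P2, SNX29 and CA9. Other genes were named after their values were seen, as neighbours, partners or counterparts of these. Of 1331 list entries, 152 were not analysed here, and 25 entries whose names had become dates were kept out of the lists. Of 608 detected list members, 15 (2.47%) had over 50% of their exon bases inside another entry. Alternatives covered thresholds, scaling, ranking, pseudocount, filters and leaving out each library. Some genes the rule names are not reported here.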

Additional observations from a re-analysis of the deposited data

How the results depend on the processing

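No paired analysis was possible because 1 group is described and no groups are compared. Of 77 alternative values for 11 results, 64 stayed within the limits set for a change. The absent entries fell to 4556 when 0 reads in all 3 libraries was required. The share of reads in the 100 most abundant entries was 14.7% without the mitochondrial chromosome and 21.2% when entries were ranked by reads, and 17.1 to 17.5% when a library was left out. Ranking by reads kept 7 of the 20 most abundant entries and leaving out the mitochondrial chromosome kept 4. Entries whose highest library was at least 2 times the lowest, 607 as reported, numbered 1208 at a mean of 0.5 RPKM, 99 at 5 RPKM, 1645 after rescaling to TPM, 131 with 100 reads and protein coding genes only (chosen after seeing the data), and 258 to 348 with a library left out, which leaves 2 values per entry. They numbered 258 without library 1, 313 without library 2 and 348 without library 3. Detected entries ranged from 11916 to 16979, receptors from 112 to 161, secreted factors from 115 to 155 and pairs from 21 to 29. Rescaling to TPM multiplied every one of the 256 named levels by 2.82 to 2.84. Leaving out library 1 moved 6 of them by over 1.5 times, among them STARD4 (1.05 RPKM), INSIG1 (10.2), TUBA1A (8.48) and SNX29P2 (0.0123). Leaving out library 2 moved 4, among them ANGPTL4 (0.517 RPKM) and ASNS (9.96). With 3 libraries of unstated origin, the SD is itself imprecise, and levels near 0.1 RPKM rest on few reads.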

Other observations

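Of 15 measured class I presentation genes, 11 (73.3%) were detected. B2M, the light chain of class I molecules, had 46.8, 47.1 and 43.6 RPKM, while HLA-B had 8.51, 8.17 and 5.69 RPKM. Of 19 measured interferon-stimulated genes, 9 (47.4%) were detected and 5 (26.3%) were absent, with a list median of 0.353 RPKM, against 64.2%, 20.7% and a median of 3.14 RPKM over all protein coding genes. IFI44 had 19.3, 10.2 and 14.2 RPKM and the antiviral effector IFIT3 averaged 2.23 ± 0.571 (SD, n = 3).

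Glycolysis genes were all detected, 21 of 21, and 16 of them were highest in library 1, against 5529 of 14100 detected entries. ENO1 (enolase 1) averaged 664 RPKM. The neuronal-type enolase ENO2 had 17.5, 7.74 and 7.95 RPKM, the largest spread of the list. The actin and tubulin genes numbered 25 detected of 26, with 15 lowest in library 2.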
